A study of Homo sapiens with 17 samples.

Results

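Long H3K27me3 domains are stretches of the genome in which trimethylation of histone H3 at lysine 27 was called over 10 kb or more in unmodified A549 cells, an established human lung carcinoma line. They were built from the peak lists of both H3K27me3 libraries on chromosomes 1 to 22 and X. Bases covered in both lists were taken, gaps of up to 3 kb were joined, and stretches of at least 10 kb were kept where less than 10% of the length was covered in both H3K9me3 lists. Of 51016 joined stretches of any length, 5634 (11.0%) met this rule. They spanned 131.7 Mb, or 4.35% of the 3029 Mb span of these chromosomes. The domains were thus chosen by H3K27me3 and H3K9me3 peak coverage, so the number, length and mark content of the domains are a description, with no test. Genes, FOXA1 peaks and FOSL2 peaks played no part in it.

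H3K27me3 is written by Polycomb repressive complex 2, whose catalytic subunit is EZH2, and is bound by Polycomb repressive complex 1, which helps keep the marked chromatin compact and its genes silent. Broad blankets of the mark are known over genes of lineages a cell does not use, above all regulators of embryonic development with CpG-rich promoters. H3K9me3 is a separate repressive mark, typical of heterochromatin, repeats and zinc finger gene clusters. FOXA1, a forkhead protein of endoderm-derived epithelia, can bind its motif on nucleosomes and is called a pioneer factor for it. FOSL2 is a subunit of AP-1, the dimeric factor formed by FOS and JUN family proteins.

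Chromatin immunoprecipitation with sequencing gave 14 peak lists, 2 per group. In A549 cells with an A-Fos transgene inserted by piggyBac, FOXA1 and FOSL2 were profiled after 48 h with 1 µg/mL doxycycline, which induces A-Fos, a dominant-negative FOS that dimerises with JUN proteins and keeps them off DNA, and in the same line without doxycycline. In WT A549 cells, with neither transgene nor drug, FOXA1, H3K9me3 and H3K27me3 were profiled. Both marks were thus measured only in WT cells, and no doxycycline-treated library lacking A-Fos was analysed here, so an effect of A-Fos and one of the drug cannot be told apart. The titles call the 2 libraries of each group biological replicates. Lists held 1854 and 5274 FOSL2 peaks with doxycycline against 45586 and 14842 without it, 11112 and 15065 FOXA1 peaks with doxycycline against 7633 and 13247 without it, and 49448 and 80318 FOXA1 peaks in WT cells. Read depth is unknown, so list length may follow depth as well as binding.

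To show the range of DNA that lay within the domains, 300-base promoters, 250 bases before to 50 after a start site, were taken from the named genes inside them. The 3 with the highest and the 3 with the lowest ratio of observed to expected CpG are printed from RefSeq (build GRCh38.p14), 5′ to 3′ on the gene's strand, with each CG in capitals.
TMEM132E promoter (chr17:34579332-34579631, + strand): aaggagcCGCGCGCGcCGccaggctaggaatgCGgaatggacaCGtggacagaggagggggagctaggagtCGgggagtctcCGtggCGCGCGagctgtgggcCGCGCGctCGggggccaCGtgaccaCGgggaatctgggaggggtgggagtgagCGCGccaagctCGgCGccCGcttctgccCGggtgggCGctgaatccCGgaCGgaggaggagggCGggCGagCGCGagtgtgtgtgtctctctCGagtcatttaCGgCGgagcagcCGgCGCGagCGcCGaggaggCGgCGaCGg
ISL1 promoter (chr5:51383198-51383497, + strand): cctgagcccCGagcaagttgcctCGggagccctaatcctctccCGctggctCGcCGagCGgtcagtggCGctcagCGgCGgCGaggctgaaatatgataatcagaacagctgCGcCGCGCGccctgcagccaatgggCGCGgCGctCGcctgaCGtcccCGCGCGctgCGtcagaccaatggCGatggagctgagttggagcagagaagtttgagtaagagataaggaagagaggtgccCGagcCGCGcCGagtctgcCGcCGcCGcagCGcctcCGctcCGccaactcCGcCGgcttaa
NKX1-1 promoter (chr4:1406393-1406692, - strand): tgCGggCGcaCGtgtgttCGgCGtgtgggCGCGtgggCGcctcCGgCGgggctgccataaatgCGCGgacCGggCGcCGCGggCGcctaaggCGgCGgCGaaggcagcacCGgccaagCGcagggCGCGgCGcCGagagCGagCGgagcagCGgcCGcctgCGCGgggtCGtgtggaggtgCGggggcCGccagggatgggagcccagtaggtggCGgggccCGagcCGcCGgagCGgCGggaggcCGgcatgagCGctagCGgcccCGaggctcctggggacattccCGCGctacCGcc
PAX4 promoter (chr7:127615978-127616277, - strand): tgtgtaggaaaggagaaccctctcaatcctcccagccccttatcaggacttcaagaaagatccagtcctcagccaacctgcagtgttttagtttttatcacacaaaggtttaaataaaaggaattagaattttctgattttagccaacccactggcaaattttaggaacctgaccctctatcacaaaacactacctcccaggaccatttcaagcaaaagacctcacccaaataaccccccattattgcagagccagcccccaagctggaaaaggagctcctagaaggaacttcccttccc
IKZF1 promoter (chr7:50318798-50319097, + strand): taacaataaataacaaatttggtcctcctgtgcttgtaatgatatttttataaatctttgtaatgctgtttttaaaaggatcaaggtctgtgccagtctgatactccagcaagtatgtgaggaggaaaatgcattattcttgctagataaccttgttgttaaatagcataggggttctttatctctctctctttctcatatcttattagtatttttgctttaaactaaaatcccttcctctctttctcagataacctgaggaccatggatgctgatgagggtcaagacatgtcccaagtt
OR7A5 promoter (chr19:14835136-14835435, - strand): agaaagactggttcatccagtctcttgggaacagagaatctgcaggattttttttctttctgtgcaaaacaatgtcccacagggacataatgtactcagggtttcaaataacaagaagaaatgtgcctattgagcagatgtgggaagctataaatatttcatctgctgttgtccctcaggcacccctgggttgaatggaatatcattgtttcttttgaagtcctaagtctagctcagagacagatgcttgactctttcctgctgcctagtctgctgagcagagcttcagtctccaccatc
The promoter of TMEM132E, a transmembrane protein gene linked to inherited deafness, held 42 CpG in its 300 bases. H3K27me3 peaks covered 33.7% and 72.3% of it in libraries 1 and 2. ISL1, a LIM homeobox regulator of heart and motor neuron progenitors, held 36 CpG, with none of its promoter covered in library 1 and 45.3% in library 2. NKX1-1, an NK homeobox gene, held 48 CpG, and neither library covered any base of its promoter: it lay in a joined gap of its 26.2 kb domain. PAX4, a regulator of pancreatic islet cells, and the olfactory receptor OR7A5 held no CpG, and both libraries covered their whole promoters. The window printed for IKZF1, a regulator of lymphocyte development, also held none and was covered for 22.3% and 100% of its length. For PAX4 and IKZF1 the start site lay within the gene's interval rather than at its end. The IKZF1 interval begins at chr7:50303455 and the printed window only at chr7:50318798. These 2 windows therefore do not show the DNA at the outer start of either gene, whose CpG content was not examined. No H3K9me3 peak overlapped any of the 6 windows. Of 860 genes inside the domains that were looked up, 660 (76.7%) had a promoter in the table, under the 80% needed, so a comparison of CpG content between genes inside and other genes is void.

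The domains also held 77 of 1911 miRNA genes (4.03%), a share near that of protein-coding genes given below. The mature RNAs of 7 seeds, each shared by more than 1 miRNA gene inside a domain among those looked up, are printed from RefSeq (build GRCh38.p14), with the seed, bases 2 to 8, in capitals. They were chosen after their positions were seen.
miR-9-5p (MIR9-2, chr5:88666902-88666924, - strand): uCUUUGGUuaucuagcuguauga
miR-9-5p (MIR9-3, chr15:89368032-89368054, + strand): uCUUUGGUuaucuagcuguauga
miR-9-3p (MIR9-2, chr5:88666866-88666887, - strand): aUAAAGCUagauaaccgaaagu
miR-9-3p (MIR9-3, chr15:89368071-89368092, + strand): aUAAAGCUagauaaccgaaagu
miR-449a (MIR449A, chr5:55170586-55170607, - strand): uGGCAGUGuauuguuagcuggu
miR-449b-5p (MIR449B, chr5:55170706-55170727, - strand): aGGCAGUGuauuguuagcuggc
miR-208a-3p (MIR208A, chr14:23388602-23388623, - strand): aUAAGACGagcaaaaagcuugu
miR-208b-3p (MIR208B, chr14:23417997-23418018, - strand): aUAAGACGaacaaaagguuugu
miR-129-1-3p (MIR129-1, chr7:128207920-128207941, + strand): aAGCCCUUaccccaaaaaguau
miR-129-2-3p (MIR129-2, chr11:43581450-43581471, + strand): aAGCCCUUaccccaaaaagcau
miR-20b-5p (MIR20B, chrX:134169850-134169872, - strand): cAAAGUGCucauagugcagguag
miR-106a-5p (MIR106A, chrX:134170244-134170266, - strand): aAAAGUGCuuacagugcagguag
miR-92a-3p (MIR92A2, chrX:134169544-134169565, - strand): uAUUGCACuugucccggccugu
miR-363-3p (MIR363, chrX:134169382-134169403, - strand): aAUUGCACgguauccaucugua
Both printed copies of miR-9-5p, a miRNA of neural progenitors, lay in domains of 64.4 kb on chromosome 5 and 33.9 kb on chromosome 15. The miR-449 genes, which act in multiciliated airway cells, shared a 16.7 kb domain with CDC20B, their host gene. H3K27me3 peaks covered 47.5% and 75.3% of that domain in libraries 1 and 2. Genes of miR-208a and miR-208b, hosted by the cardiac myosin genes MYH6 and MYH7, shared 1 domain of 92.8 kb with both hosts. The 2 copies of miR-129 lay in domains of 12.3 and 61.2 kb, and miR-106a and miR-20b, relatives of the miR-17 family, lay in 1 domain of 28.7 kb on chromosome X with miR-92a and miR-363, which share another seed.

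Most domains were short and patchily marked in these peak lists. The part of peak calling and read depth in length and patchiness was not tested. Lengths had a lower quartile of 12.7 kb, a median of 17.0 kb and an upper quartile of 26.2 kb, and the longest reached 272.6 kb. There were 2159 domains of at least 20 kb, 413 of at least 50 kb and 58 of at least 100 kb. Bases covered in both H3K27me3 lists made up 57.4% of the summed length, and the other 56.1 Mb were joined gaps or bases covered in at most 1 list. The median domain was covered for 59.5% of its length in library 1 and 72.4% in library 2. These domains held 50.96% of all bases covered in both H3K27me3 lists. H3K27me3 peaks that overlapped them had a median deposited fold enrichment of 4.03 in library 1 and 4.33 in library 2, against 3.51 and 3.19 for the other peaks of those lists. Their median peak length was 866 and 1209 bp, against 524 and 562 bp elsewhere. In 2760 domains (49.0%) no base was covered in both H3K9me3 lists at once, though either list alone could cover some. Library 1 of H3K9me3 covered a median of 6.52% of a domain and library 2 a median of 2.33%.

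The limits of the rule cut through a continuum. The shortest domain kept was 10.0 kb long, 145.1 kb from RRP15, while stretches near SKOR2 and within FREM1, both of 9999 bp, were left out. Domains near AXIN2 and SND1 were kept with 9.98% and 9.97% of their length in both H3K9me3 lists, and stretches at OR3A1 and near XYLT1 were left out at 10.02% of theirs. In all, 1087 stretches of 10 kb or more were left out for H3K9me3. The size of the collection moved with several choices: 2167 domains met the rule with gaps of up to 1 kb, 2159 with a minimum length of 20 kb, 3279 with the limit applied to bases covered in either H3K9me3 list, 3739 without H3K9me3 library 2, and 9236 without H3K27me3 library 1.

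Chromosome 20 carried the densest cover. Copy number of the A549 chromosomes was not examined, and its part in the order of chromosomes was not tested. Chromosome 20 held 303 domains that spanned 13.4% of its length, and 67 of its 537 protein-coding genes (12.5%) lay inside, meaning that domains covered at least 50% of the gene's interval, against 4.53% of genes over all chromosomes. Chromosomes 16, 10, 17 and 15 followed with 8.07%, 7.54%, 7.48% and 6.57% of their span. Chromosome 4 had the lowest share, 0.813% in 85 domains, below chromosome 6 with 1.17% and chromosome X with 1.46%. Chromosome 19, with the most genes per Mb, stood apart in another way. Its domains held only 27.9% of its bases covered in both H3K27me3 lists, the lowest share of any chromosome, and 22.4% of its span was covered in both H3K9me3 lists, against 5.43% on chromosome 20. Domains came in groups: the median gap to the next one was 49.6 kb, and 1221 of 5611 neighbouring pairs (21.8%) were at most 10 kb apart. Gaps of more than 3 kb were not joined, so a broader block can count as several neighbours. CACNA1C alone was overlapped by 6 domains.

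**Figure D1:**
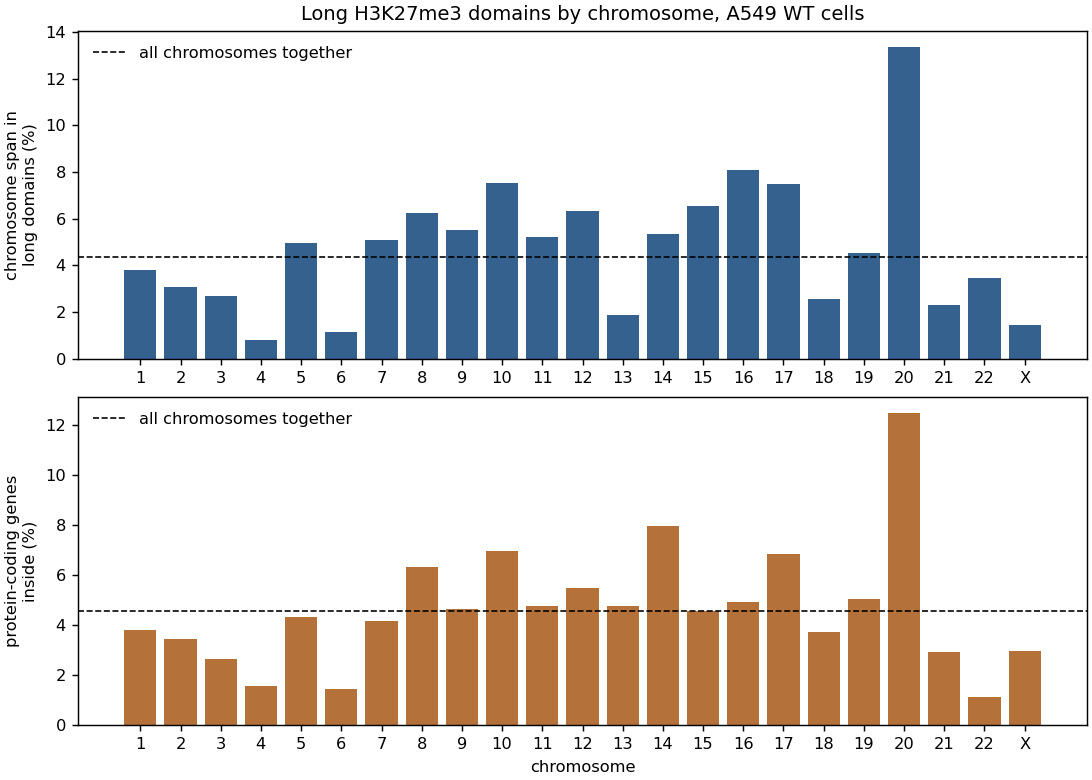
Share of each chromosome's span in long H3K27me3 domains (upper bars, percent) and share of its protein-coding genes with at least 50% of the interval inside (lower bars, percent), with the values over all chromosomes as dashed lines. Chromosome 20 is highest in both panels, at 13.4% and 12.5%.

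Of the 12 longest domains, 6 lay wholly within a gene, 4 held whole genes, and the others overlapped an end of LZTS1 or TBX5. The first, of 272.6 kb (chr17:34415336-34687944, hg38), held the whole of TMEM132E, and H3K27me3 peaks covered 87.4% and 91.3% of it in libraries 1 and 2. CACNA1C, the pore subunit of an L-type calcium channel of heart and brain, carried domains of 239.6 kb (chr12:2398515-2638074) and 160.6 kb, and 86.5% of its 727.2 kb lay in domains. TENM2, a teneurin of synaptic adhesion, followed with 215.4 kb, the nuclear receptor gene RORA with 208.7 kb, and ALK, a receptor tyrosine kinase of neural development, with 178.1 kb. LZTS1 and XKR6 on chromosome 8 carried domains of 205.5 and 153.1 kb. TBX5, a T-box regulator of heart and forelimb, was overlapped by a domain of 143.9 kb that ran on past the gene (chr12:114364659-114508572). Coverage in these 12 longest domains ran between 73.0% and 91.1% in library 1 and between 82.4% and 94.7% in library 2. In domain bases per gene, CACNA1C (628.9 kb), TENM2 (624.4 kb), ASIC2 (611.3 kb), an acid-sensing ion channel gene, RORA (593.8 kb) and ALK (547.3 kb) came first.

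Other domains lay over clusters of related genes. The 1 with the most whole genes spanned 147.8 kb on chromosome 19 (chr19:50936621-51084390) and held the 10 genes from KLK5 to KLK14, secreted serine proteases of the kallikrein family. It was covered for 81.8% and 88.6% of its length in the H3K27me3 libraries and, with 9.66% in both H3K9me3 lists, sat just under the limit. A domain of 158.2 kb on chromosome 20 (chr20:45443553-45601737) held 6 whole genes, counting a read-through of EPPIN and WFDC6, among them EPPIN, SPINT3 and WFDC8, which encode protease inhibitors of the male reproductive tract. The 92.8 kb domain of MYH6 and MYH7 (chr14:23351341-23444130) held 5 whole genes, including the cytokine gene IL25. The other domains among the 6 richest held 4 whole genes each: the beta-defensins DEFB126 to DEFB129, the growth hormone and placental lactogen genes GH1, GH2, CSH1 and CSHL1, and the alpha-type globins HBZ, HBM, HBA1 and HBA2. The globin domain of 31.4 kb was marked in both H3K27me3 lists for 79.4% of its length, and neither H3K9me3 list covered any of it. HBA1 and HBA2, and to a degree the GH and CSH genes, are near-identical copies, between which short reads can be placed uncertainly.

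**Figure D2:**
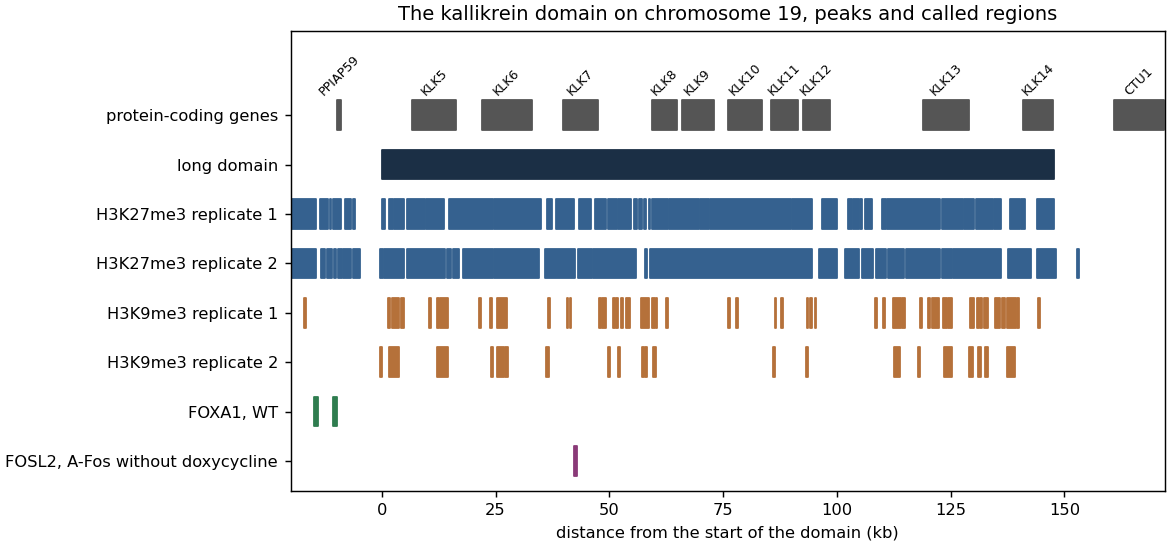
Protein-coding genes, the long domain, H3K27me3 and H3K9me3 peaks of each library, FOXA1 regions of WT cells and FOSL2 regions of A-Fos cells without doxycycline, drawn by distance in kb from the start of the kallikrein domain. The 10 KLK genes lie within the 147.8 kb domain, H3K27me3 peaks fill most of it in both libraries, and it holds 1 FOSL2 region and no FOXA1 region.

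By place, 372 domains (6.60%) held at least 1 whole protein-coding gene, 1552 (27.5%) lay wholly within a gene, 1069 (18.97%) overlapped a gene end without holding a whole gene, and 2641 (46.9%) overlapped no protein-coding gene. By the 50% rule 905 of 19974 protein-coding genes (4.53%) were inside. Domains overlapped 2007 genes (10.0%) by at least 1 bp and held 456 (2.28%) whole. The number inside was 542 without H3K9me3 library 2 and 1476 without H3K27me3 library 1. The rule favours short genes: those inside had a median length of 11.5 kb against 24.2 kb for all genes, and those overlapped but not inside had a median of 95.5 kb. Of lncRNA genes, 1103 of 18177 (6.07%) were inside, of pseudogenes 654 of 15212 (4.30%), of snoRNA genes 23 of 1196 (1.92%) and of tRNA genes 9 of 443 (2.03%).

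Regulators of development lay inside more often than genes at large. Over 14 lists of transcription factor families, 75 of 346 members (21.7%) were inside, on 22 chromosomes, against 4.53% of all protein-coding genes. By any overlap the shares were 108 of 346 (31.2%) and 10.0%, and gene length was not matched. Sine oculis, DLX and IRX homeobox genes, regulators of face, limb and eye, led with 7 of 18. DLX5 and DLX6 shared a domain of 75.01 kb, DLX3 and DLX4 1 of 52.3 kb, and IRX2 lay in 1 of 70.2 kb. NK homeobox genes followed with 11 of 30, among them NKX2-2, covered for 87.3% and 91.0% of its length in the 2 libraries, EMX2 (74.7% and 84.0%) and NKX2-1 (57.6% and 78.1%). LIM homeobox genes gave 4 of 12 and PAX genes 3 of 9: PAX1, PAX2 and PAX4. Lineage basic helix-loop-helix genes gave 17 of 53, including the neuronal NEUROD2 (76.5% and 91.9%), the glial OLIG2 (78.9% and 84.0%) and the cardiac HAND1 (91.6% and 100%). POU genes gave 4 of 16 and SOX genes 4 of 19. SOX14, a neuronal SOX gene, was covered in full in both libraries, SIX6, an eye regulator, likewise. LHX5 shows the effect of the H3K9me3 limit: its interval was covered for 82.2% and 86.2%, but it lay in a stretch left out for H3K9me3.

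**Figure D3:**
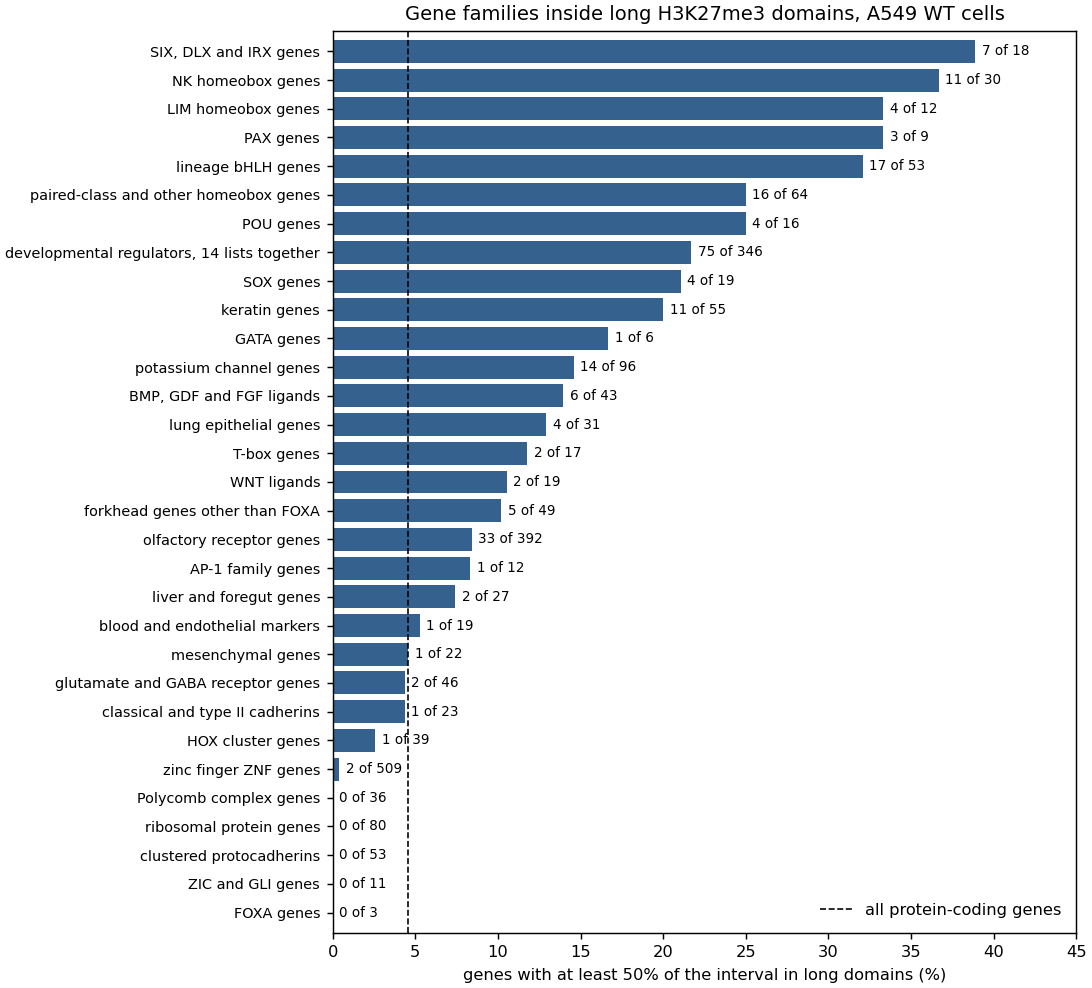
Share of each gene family with at least 50% of the interval in long H3K27me3 domains, in percent, with counts beside the bars and the 4.53% of all protein-coding genes as a dashed line. Sine oculis, DLX and IRX genes and NK homeobox genes reach the highest shares, while ribosomal protein, Polycomb complex, clustered protocadherin and FOXA genes have none inside.

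HOX genes, textbook Polycomb targets, were nearly all outside: 1 of 39 (2.56%) was inside, against 4.53% of all protein-coding genes. That gene was HOXD13, at the limb end of the HOXD cluster, which shared a domain of 27.5 kb with its neighbour EVX2 (chr2:176071879-176099386). Its interval was covered for 60.01% in library 1 and 75.02% in library 2. In the other clusters the longest joined stretches were 7.7 kb in HOXA, 3.0 kb in HOXB and 5.1 kb in HOXC. Bases covered in both lists made up 0.292% of the HOXA span, 2.04% of HOXB, 9.18% of HOXC and 7.15% of HOXD. T-box genes (2 of 17, TBX5 and TBXT), GATA genes (1 of 6, GATA4) and forkhead genes other than FOXA (5 of 49, among them FOXB1) lay between these extremes, and no ZIC or GLI gene (0 of 11) was inside.

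Genes of differentiated tissues varied by family. Keratin genes gave 11 of 55, on 2 chromosomes. The hair root keratins KRT71 and KRT74 shared a domain of 36.9 kb, and KRT9, of palm and sole skin, was covered in full in both libraries, with H3K9me3 peaks over 58.2% and 27.2% of it. Potassium channel genes gave 14 of 96, including KCNJ10, a channel of glial cells, and BMP, GDF and FGF ligands 6 of 43, including BMP2 and the pair FGF6 and FGF23, which shared a domain of 92.4 kb. WNT ligands gave 2 of 19 (10.5%). Olfactory receptors gave 33 of 392 (8.42%). Glutamate and GABA receptors gave 2 of 46, cadherins 1 of 23, liver and foregut genes 2 of 27, blood and endothelial markers 1 of 19 and mesenchymal genes 1 of 22, shares near or not far above that of all genes. By any overlap, glutamate and GABA receptors gave 15 of 46 (32.6%) and cadherins 5 of 23 (21.7%), against 10.0% of all genes. No ribosomal protein gene (0 of 80), Polycomb complex gene (0 of 36) or clustered protocadherin (0 of 53) was inside. Zinc finger ZNF genes gave 2 of 509, ZNF423 and ZNF831, on chromosomes 16 and 20. ZNF536, covered for 74.0% and 83.3% by H3K27me3 peaks, lay in stretches left out for H3K9me3, whose peaks covered 43.6% and 30.1% of it.

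Among lung epithelial genes 4 of 31 (12.9%) were inside, against 4.53% of all protein-coding genes. They were NKX2-1, the regulator of lung and thyroid identity, in a domain of 47.6 kb (chr14:36497467-36545047), SFTPA2, a surfactant protein of alveolar cells (30.4% and 69.1% covered), SCGB3A2, a secretoglobin of airway cells (82.6% and 100%), and CEACAM6, an epithelial adhesion protein (60.6% and 75.01%). Only 22.4% of SFTPA2 was covered in both lists at once. Another surfactant protein gene, SFTPD, was covered for 49.8% and 55.2% but overlapped no domain. Of the AP-1 family 1 of 12 (8.33%) was inside. FOSB, in its domain of 19.1 kb (chr19:45461032-45480107), was covered for 62.4% and 68.9%. FOS was covered for 54.1% and 56.5% but lay in no domain with gaps of up to 3 kb; it lay inside 1, for 82.4% of its length, with gaps of up to 5 kb. FOSL2, JUN, FOXA1 and FOXA2 had no base covered by H3K27me3 in either library, and FOXA3 had 8.003% and 16.2%. None of these 5 genes overlapped a domain.

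FOXA1 regions called in both WT libraries were sparser inside the domains than elsewhere. In WT cells, 35739 regions had FOXA1 peaks of both libraries, and 855 of them (2.39%, with a 95% exact interval of 2.24 to 2.56%) shared at least 1 bp with a domain, while the domains made up 4.35% of the span. The density was 6.49 regions per Mb inside against 12.04 per Mb elsewhere, a ratio of 0.539. In shorter H3K27me3 stretches of under 10 kb the ratio was 0.560, and in long stretches left out for H3K9me3 it was 0.710. A region was found in 715 domains (12.7%), and 110 had at least 2. The share of domains with a region was 32.4% among those of 50 kb or more, 17.1% at 20 to 50 kb and 8.12% at 10 to 20 kb. Intervals here and below cover counting error only, and regions are not replicates of a condition. In the single WT lists, 3.89% of FOXA1 peaks in library 1 and 2.81% in library 2 were inside, nearer to the 4.35% of the span. The number inside was 472 without H3K9me3 library 2, 1548 without H3K27me3 library 1, and 1924 and 2255 with FOXA1 library 1 or 2 alone.

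Within the domains, FOXA1 region centres fell on bases covered in both H3K27me3 lists at 4.74 per Mb, and on the rest of the domains, covered in 1 list or in none, at 8.54 per Mb. Domains with a larger marked share did not hold fewer regions: density was 7.34 per Mb in the 25% of domains with the largest marked share and 5.54 per Mb in the 25% with the smallest, whose median lengths were 21.1 and 13.9 kb. FOXA1 regions inside ranked lower by fold enrichment, with median percentiles of 58.2 and 62.5 in libraries 1 and 2 against 63.2 and 76.8 over all regions called in both. At the ends of domains, the density was 4.35 per Mb in the first kb inside and 9.67 per Mb in the first kb outside, and it reached 14.2 per Mb at 50 to 200 kb outside.

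**Figure D4:**
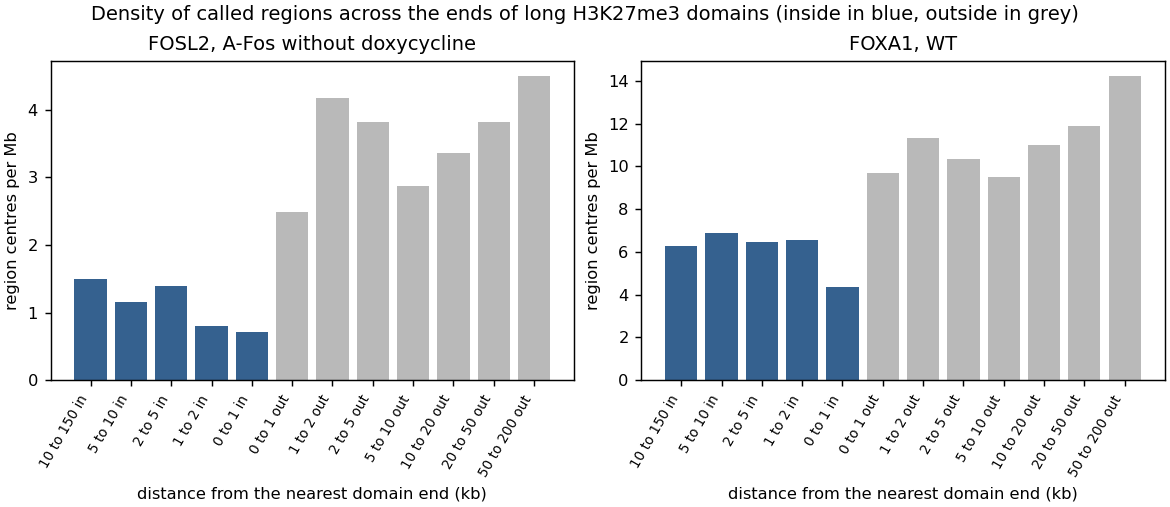
Centres of called regions per Mb by distance from the nearest end of a long domain, inside (blue) and outside (grey), for FOSL2 in A-Fos cells without doxycycline and FOXA1 in WT cells. Density inside stays below that outside in both panels, and bins are 1 to 150 kb wide, so narrow bins rest on fewer regions.

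The strongest FOXA1 peak of a whole library lay in a domain. A region on chromosome 15 (chr15:69593732-69595841), 137.5 kb from RPLP1 and 22.4 kb from the end of a 46.3 kb domain, had fold enrichments of 311.7 and 795.1 in WT libraries 1 and 2, the highest of library 2. H3K27me3 peaks covered 88.3% and 93.1% of that domain. The WT region touched bases covered in both H3K27me3 lists. It was also called in FOXA1 of A-Fos cells in all 4 libraries, and overlapped no FOSL2 region. The narrower A-Fos regions at this site, with and without doxycycline, touched no base covered in both H3K27me3 lists. A region within TLN2, which encodes the cytoskeletal linker talin 2, came next with fold enrichments of 111.5 and 293.7 (chr15:62569564-62570963). A region 19.9 kb from BLM, a second region in the domain near RPLP1 (61.4 and 247.8) and a region 376.5 kb from TNC followed. The regions near BLM and TNC and the second near RPLP1 touched no base covered in both H3K27me3 lists. Of all 855 WT FOXA1 regions inside, 529 (61.9%) touched such a base. The domains with the most WT FOXA1 regions were 1 on chromosome 8, 286.4 kb from KCNU1, with 5, and those at CD300LD, FOXB1, DMRTC2, SLCO5A1 and near RPLP1, with 4 each. CD300LD belongs to a cluster of leukocyte receptors, and DMRTC2 is a germ cell regulator.

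FOSL2 regions shared by libraries were also sparser inside than elsewhere, while the full lists had shares near that of the span. Of 10190 FOSL2 regions shared by both libraries of A-Fos cells without doxycycline, 168 (1.65%, 1.41 to 1.92%) lay at least partly in a domain, 1.28 per Mb inside against 3.46 per Mb elsewhere, a ratio of 0.369. The ratio was lower still, 0.276, in H3K27me3 stretches under 10 kb, and it was 0.487 in long stretches left out for H3K9me3. Of the long domains, 158 held a FOSL2 region and 10 of these held 2, the most of any, among them domains within RYR3, RPH3A and RORA and at LZTS1. Region centres fell on bases covered in both H3K27me3 lists at 0.979 per Mb and on the rest of the domains at 1.62 per Mb. Density was 0.710 per Mb in the first kb inside (8 regions) and 2.48 per Mb in the first kb outside (28 regions). In the single lists, 4.10% of peaks in library 1 and 4.89% in library 2 were inside, close to and above the 4.35% of the span. The number inside was 71 without H3K9me3 library 2, 329 without H3K27me3 library 1, and 1868 and 726 with FOSL2 library 1 or 2 alone. The strongest FOSL2 regions inside were 1 within FAM110B on chromosome 8, with fold enrichments of 88.5 and 26.2 in libraries 1 and 2, and, off that chromosome, 1 located 37.0 kb from RXRG (chr1:165482077-165482662), with 56.1 and 16.5. Neither the FAM110B nor the RXRG region touched a base covered in both H3K27me3 lists. Of all 168 regions inside, 108 (64.3%) touched such a base. FOSL2 regions overlapped 32 of the 855 WT FOXA1 regions inside (3.74%) and 13.5% of all WT FOXA1 regions. The marks come from WT cells and FOSL2 from the A-Fos line, whose marks were not measured.

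FOSL2 lists with doxycycline were short, and a larger part of them lay in the domains. Libraries 1 and 2 with doxycycline had 11.8% and 12.4% of their peaks inside, against 4.10% and 4.89% without it, and the groups did not overlap. The mean share was 12.1 ± 0.389% with doxycycline and 4.49 ± 0.561% without it (SD, n = 2 libraries each), so that it was 2.69 times as large. The difference of 7.59 percentage points had a p of 0.333 by a two-sided exact permutation test over libraries, the smallest that 2 against 2 libraries allow. Without H3K9me3 library 2 it was 3.41 points. In numbers, 219 and 652 peaks with doxycycline lay inside, against 1868 and 726 without it. Only 52 FOSL2 regions were called in both libraries with doxycycline, and 4 of them (7.69%, 2.14 to 18.5%) were inside, all on chromosome 15: within RYR3 and RORA and near VPS13C and SLCO3A1. In library 1, those other than the region within RYR3 had a fold enrichment of 3.05, below the list median of 3.51. Of the same 52 regions, 7 (13.5%) lay in H3K27me3 stretches under 10 kb and 12 (23.1%) in long H3K9me3 domains built with the marks swapped. Of the 10030 FOSL2 regions present in both untreated libraries and in no treated one, 160 (1.60%) were inside. Other marked sequence gave like ratios: the mean share with doxycycline was 2.69 times that without it in long domains, 2.73 times in H3K27me3 stretches under 10 kb and 2.64 times in long H3K9me3 domains built by the mirrored rule.

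Among the FOSL2 lists without doxycycline, weaker peaks had the larger share inside. Peaks under the 25th percentile of fold enrichment in their list had 8.43% and 10.0% of their number inside in libraries 1 and 2, and those from the 75th percentile up had 1.26% and 0.781%. No such gradient was seen with doxycycline, where the weakest peaks had 12.3% and 12.9% and the strongest 12.7% and 12.3%. The highest fold enrichment in libraries 1 and 2 was 6.57 and 6.77 with doxycycline, against 148.0 and 45.9 without it. Percentiles within a list thus stand for unlike strengths in the 2 groups, and the strongest peaks with doxycycline were weak ones. The part of list length and peak strength in the difference between shares with and without doxycycline was not tested.

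FOXA1 gave a like picture at lower shares. Libraries 1 and 2 with doxycycline had 5.60% and 5.26% of FOXA1 peaks inside, against 2.42% and 1.95% without it, and the groups did not overlap. The mean share was 5.43 ± 0.241% with doxycycline and 2.19 ± 0.337% without it (SD, n = 2 libraries each), a difference of 3.24 percentage points with a p of 0.333 by the exact permutation test. It was 1.65 points without H3K9me3 library 2 and 5.27 points without H3K27me3 library 1. The lists with doxycycline were not the shorter ones here, and 622 and 792 of their peaks lay inside, against 185 and 258 without it. Of FOXA1 regions called in both libraries, 174 of 5859 (2.97%) were inside with doxycycline and 86 of 6015 (1.43%) without it. Of those 174 regions with doxycycline, 128 (73.6%) overlapped a FOXA1 region of WT cells, as did 92.3% of all FOXA1 regions with doxycycline. Regions called in both libraries with doxycycline and neither without it were inside in 78 of 1279 cases (6.10%, 4.85 to 7.55%), those called in both libraries without doxycycline and in neither treated library in 29 of 1872 (1.55%, 1.04 to 2.22%), and those called in all 4 libraries in 47 of 3205 (1.47%, 1.08 to 1.95%). Regions in every other combination of libraries, the largest class, were inside in 1288 of 21469 cases (5.999%, 5.69 to 6.33%), a share like that of the class with doxycycline alone. The strongest regions inside with doxycycline were again near RPLP1 and within TLN2, with fold enrichments of 44.97 and 52.5 and of 43.6 and 45.6, followed by 1 within VAT1L on chromosome 16 (42.3 and 43.1). Here the weakest peaks, under the 25th percentile of their list, had the larger share inside in both groups, 8.86% and 7.84% with doxycycline and 5.24% and 3.41% without it. Over whole lists, the ratio of mean shares was 2.48 in long domains, 3.09 in H3K27me3 stretches under 10 kb and 1.84 in long H3K9me3 domains.

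**Figure D5:**
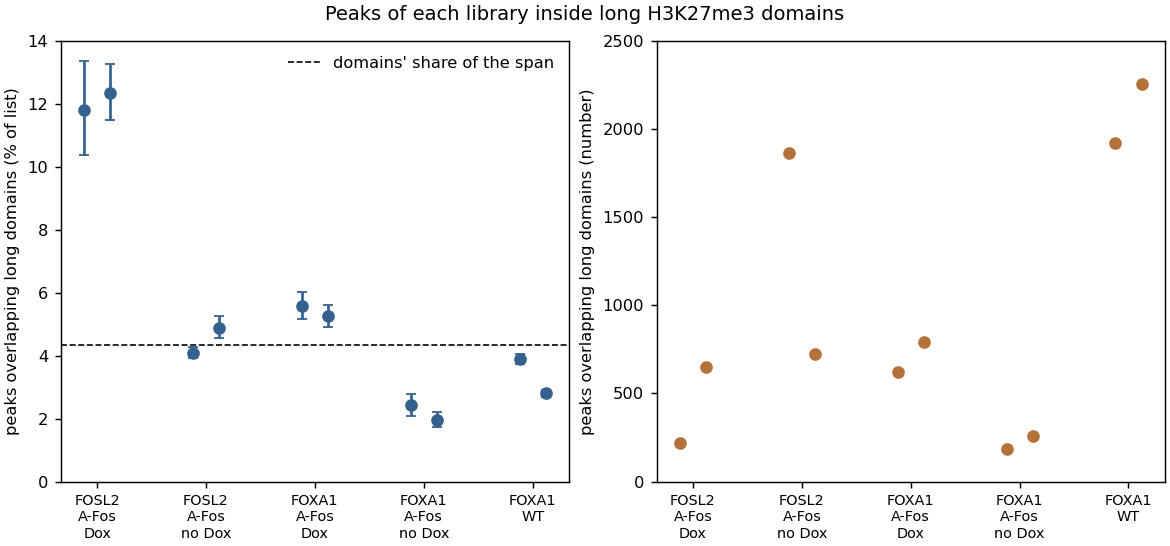
Peaks of each library that overlap a long H3K27me3 domain, as percent of its list with 95% exact intervals for counting error (left) and as a number (right), by factor, line and doxycycline, with 1 point per library. The FOSL2 libraries with doxycycline have the highest shares, 11.8% and 12.4%, from 219 and 652 peaks.

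Between the lines, the A-Fos libraries without doxycycline had 2.42% and 1.95% of FOXA1 peaks inside, against 3.89% and 2.81% in WT cells. The difference of -1.16 percentage points had a p of 0.333 by the exact permutation test. It was -0.622 points without WT library 1 and -0.720 points without H3K9me3 library 2. It turned round with lists of equal length: among the 7633 strongest peaks of each library, 2.42% and 1.38% were inside in the A-Fos line without doxycycline against 1.68% and 1.38% in WT cells, a difference of 0.373 points. Of the 86 FOXA1 regions inside domains in A-Fos cells without doxycycline, 85 overlapped a FOXA1 region of WT cells.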

How the data were processed

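ChIP-seq peak lists of 14 libraries, 2 per group, were analysed, and 3 inputs were not. Per the labels' protocols, treated A-Fos cells received doxycycline at 1 µg/mL for 48 h. The deposited lists give the authors' values per peak: fold enrichment on a linear scale (a ratio to background), and the −log10 p-value and −log10 q-value, with q of at most 0.05. Per the submitters' processing notes, reads were handled with MACS2, deepTools, SAMtools 1.8, BWA 2.2.1, fastp 0.23.2 and DRAGEN on hg38, in an order and with settings not given here. Peaks were called per library. Depth is unknown, since no read counts are listed. Fold enrichments were compared only within a list, apart from the highest values of the FOSL2 lists.

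Groups came from sample titles. Domains were built with numpy 2.4.6 and pandas 2.3.3 (Python 3.11.15) from peaks on chromosomes 1 to 22 and X. Gaps of exactly 3 kb were joined. The span of a chromosome ends at the last peak of any list. FOXA1 or FOSL2 peaks of both libraries of a group that shared at least 1 bp were merged into regions. The mirrored rule for H3K9me3 swapped the marks. Gene intervals, promoters and miRNAs came from RefSeq tables (GRCh38.p14), without strand for gene intervals, so exons and introns were not distinguished, and overlapping genes were each counted. Shares have 95% exact (Clopper-Pearson) intervals from scipy 1.17.1, and shares of 2 groups of libraries were compared by exact permutation. All functions matched a base-by-base count in 50 of 50 simulated sets.

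The domains, gene lists, rules and alternatives were chosen with earlier results of these data known. The 30 gene lists are name patterns. Named were the 12 longest domains, the 6 with the most whole genes, FOXA1 or FOSL2 regions, those nearest the limits, up to 8 genes per list inside and as many outside, and the 8 strongest regions inside. Alternatives were other gaps, lengths, H3K9me3 limits, peak thresholds and overlaps, equal list lengths, a replicate block, and each library left out.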

Additional observations from a re-analysis of the deposited data

Results flagged for a closer look

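The rule was applied to chromosomes 1 to 22 and X. On the contigs outside these chromosomes and Y, which the comparisons above do not use, 6 stretches met the same rule. They lay on 5 contigs, were 12.3 to 20.1 kb long, and had 65.4% to 87.2% of their length covered in both H3K27me3 lists.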

How the results depend on the processing

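With gaps of up to 1 kb, a minimum length of 20 kb, the H3K9me3 limit on either list, and only mark peaks of at least median fold enrichment, in this order, there were 2167, 2159, 3279 and 3593 domains of 36.9, 83.1, 66.0 and 74.7 Mb, with 267, 546, 478 and 565 genes, 245, 546, 403 and 503 WT FOXA1 regions and 45, 120, 65 and 90 FOSL2 regions inside. Gaps of up to 5 kb gave 199.8 Mb, 1301 WT FOXA1 and 294 FOSL2 regions. Counting genes with any overlap gave 2007 and whole genes 456. Without 1 library in turn, there were 3739 to 9236 domains of 77.5 to 244.6 Mb, 542 to 1476 genes, 472 to 2255 WT FOXA1 regions and 71 to 1868 FOSL2 regions. A single FOXA1 or FOSL2 list gave the largest of these region counts, since no second library was then needed. The other alternatives for these 5 results stayed within 1.5 times the reported counts. Of 61 genes checked, 52 were inside; 26 remained inside with gaps of up to 1 kb, 21 with the H3K9me3 limit on either list and 24 without H3K9me3 library 2.

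The share with doxycycline minus that without it kept its direction in all 17 alternatives for FOSL2 (2.61 to 10.2 percentage points) and in all 17 for FOXA1 (0.898 to 5.27). Between the A-Fos line without doxycycline and WT cells, it turned to 0.373 points with lists of equal length and kept its direction in the other 17 alternatives. Without WT FOXA1 library 1, or without A-Fos library 1 or 2, it was -0.622, -1.40 or -0.926 points, each with a p of 0.667 by the exact permutation test. With a replicate block (the mean of the differences within replicate numbers) the values were the same by construction, 7.59, 3.24 and -1.16 points, each with a p of 0.5 in the exact sign test, the smallest that 2 pairs allow; the labels do not say that numbers mark shared batches. Depth is unknown, and 2 libraries per group allow no p below 0.333.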
